A study of Mus musculus with 6 samples.

Results

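The small leucine-rich proteoglycans are a family of secreted matrix proteins. The mRNA of 10 of their genes, Prelp, Fmod, Aspn, Dcn, Lum, Bgn, Ogn, Omd, Kera and Podn, was followed in mouse embryonic fibroblasts (MEFs) with and without the gene Stc1. Each gene was found by its name among the loci of the deposited files, and all 10 were among the 36812 loci that had a gene name and a usable value. The family was chosen by measured values of these same libraries, namely the knockout over wild-type fold changes, in which the tool DESeq2 had called Prelp, Fmod and Aspn lower in the knockout. Differences between the genotypes in these 10 genes are therefore described without a test of their own and support nothing. A filter on low counts left 15673 loci for the count test edgeR, and 9 of the 10 genes were among them. Kera was the exception.

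Fibroblasts labelled STC1+/+ WT, which carry the normal gene, were compared with fibroblasts labelled STC1-/- KO, which carry no normal copy of it. There were 3 libraries per genotype, and both genotypes have a C57BL/6 background and were grown in DMEM to which FCS (10%) and Pen/Strep had been added. The product of Stc1 is stanniocalcin-1, a hormone-like secreted protein, and MEFs are primary connective tissue cells grown out of embryos. The libraries were made with a stranded kit for mRNA. Replicate numbers only name the libraries. Separate embryos or cultures are not named as the origin of the replicates, so any p-value covers no more than the spread seen among these 6.

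Depth ran from 21882092 estimated fragments in KO replicate 1 to 71488701 in WT replicate 1. Stc1 fragments numbered 2245, 291 and 368 in WT replicates 1 to 3 against 6, 0 and 0 in KO replicates 1 to 3, so the targeted gene matched the labels. None of the 12 fibroblast markers with a usable value was at 0 in any library, and they stood at a median of 183 to 468 CPM (fragment counts divided by a common measure of library size). Over all loci edgeR's quasi-likelihood test called 0 of 15673 at a Benjamini-Hochberg adjusted p of 0.05 (0%), with a lowest adjusted p of 0.194. At an unadjusted p of 0.05 it gave 251 loci higher and 356 lower. DESeq2 called 29 loci higher and 32 lower, and limma-voom called 0. The 12 fibroblast markers had a median log2 fold change (KO over WT) of -0.70, with 4 positive and 8 negative. Of them edgeR and DESeq2 called 0, and 3 were lower at an unadjusted edgeR p under 0.05. In 4 every KO library was below every WT library, against 5.44% of all loci tested.

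Small leucine-rich proteoglycans consist of a short protein core built from leucine-rich repeats, which curves into a solenoid, and in many members of attached chains of chondroitin, dermatan or keratan sulfate. They bind fibrillar collagens, and by doing so set how thick collagen fibrils grow and how they are spaced in tendon, skin, cornea and bone. Several also bind growth factors such as those of the TGF-beta family, or receptors at the cell surface. Fibroblasts and the cells of tendon and cartilage are among their main sources. The family is divided into classes: Dcn, Bgn and Aspn belong to class I, Fmod, Lum, Prelp, Kera and Omd to class II, Ogn to class III and Podn to class V.

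Per unit of transcript length, Bgn and Dcn made up most of the summed mRNA of the 10 genes in every library. The other 8 genes held from 0.571% of it in WT replicate 1 to 9.96% in WT replicate 3. Bgn encodes biglycan and Dcn decorin, class I members that carry chondroitin or dermatan sulfate chains and bind collagen. Bgn stood first and Dcn second of the 10 genes by FPKM (fragments per kilobase of transcript and unit of library size, as deposited) in all 6 libraries. The WT means were 1465 ± 525 FPKM (SD, n = 3) for Bgn and 225 ± 135 for Dcn, and the KO means were 1244 ± 181 and 503 ± 262. Among all loci with a name, Bgn ranked 6, 7 and 31 by FPKM in WT replicates 1 to 3 and 27, 14 and 14 in KO replicates 1 to 3. In bulk RNA, fewer cells of a type and less RNA per cell cannot be told apart, which holds for each level given here.

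The remaining genes were ordered by mean WT level as Lum at 40.5 ± 47.2 FPKM, Aspn at 25.2 ± 32.4, Fmod at 14.3 ± 19.1, Ogn at 13.7 ± 14.6, Prelp at 7.79 ± 4.99, Podn at 4.07 ± 4.00, Omd at 0.404 ± 0.404 and Kera at 0.0375 ± 0.0273 (SD, n = 3). From Lum down to Podn the ranges of neighbours in that order overlapped, so their order is not resolved, whereas Bgn from Dcn, Dcn from Lum, Podn from Omd and Omd from Kera were separate. In KO libraries the order was Bgn, Dcn, Lum at 8.15 ± 1.05 FPKM, Podn at 1.5 ± 0.632, Ogn at 0.981 ± 0.927, Prelp at 0.836 ± 0.0656, Fmod at 0.787 ± 0.246, Aspn at 0.556 ± 0.554, Omd at 0.0656 ± 0.0646 and Kera at 0.00305 ± 0.00528. Here Bgn, Dcn and Lum were separate from each other, as were Lum from Podn and Omd from Kera, while the genes from Podn to Omd overlapped with their neighbours. Aspn stood in place 4 of 10 by WT mean and in place 8 by KO mean, and Podn in places 8 and 4.

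**Figure D1:**
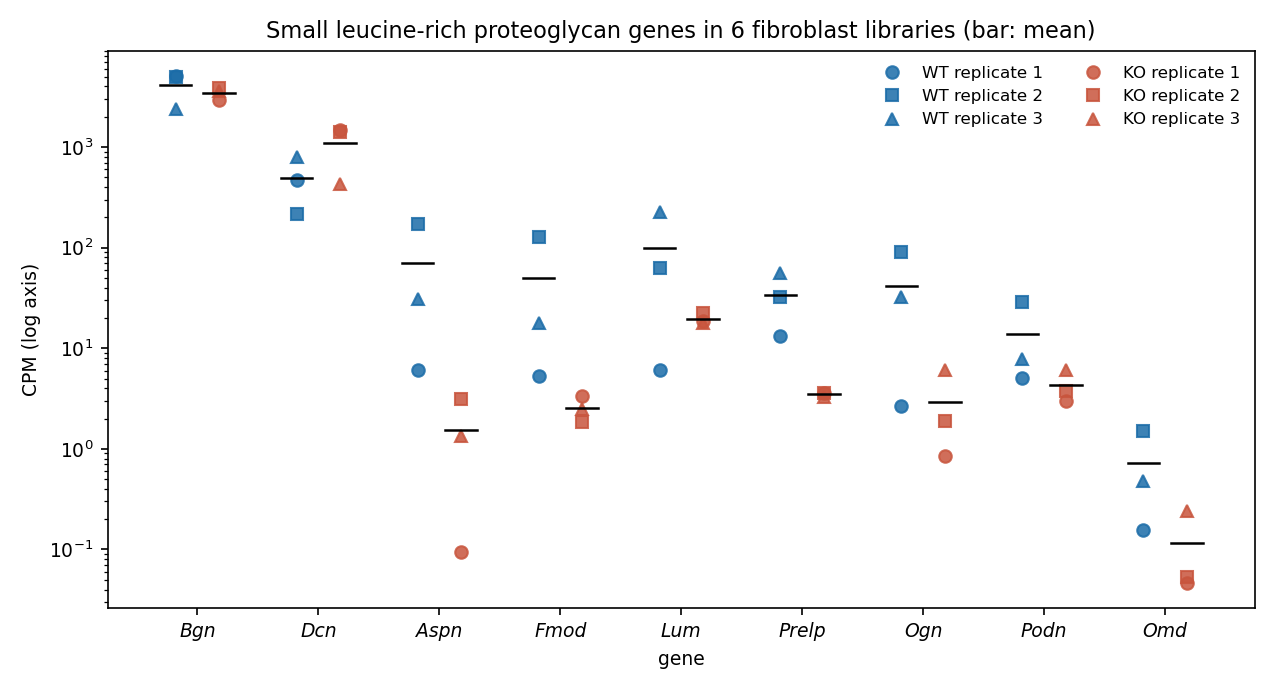
Level of 9 of the genes in each library, in CPM on a log axis. Symbols are single libraries, with WT in blue and KO in red, and bars are group means; Kera, with at most 6 fragments in a library, is not drawn. The red symbols of Prelp, Fmod and Aspn all lie below the blue ones, and the genotypes overlap for the other 6 genes.

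Prelp, Fmod and Aspn were the members in which every KO library was below every WT library. Over the 15673 loci tested, 5.44% had every KO library below every WT library and 5.18% had every KO library above. DESeq2 called the same 3 genes lower, against 0.172% of the 18613 loci it tested, and called 0 of the 10 higher. The family was picked on this contrast, so nothing is read from these shares.

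Prelp encodes prolargin, a class II member with a basic amino-terminal region that binds heparan sulfate and anchors collagen to basement membranes. It lies on the minus strand at chr1:133910304-133921414 (mm10, locus XLOC_001586); like the other 9 it is annotated as protein-coding in GENCODE. The antisense gene Gm15851, which overlaps it, had 3 fragments in all libraries together. It had 925, 1374 and 2714 fragments in WT replicates 1 to 3, or 13.1, 32.2 and 56.2 CPM, against 76, 133 and 148 fragments, or 3.57, 3.57 and 3.28 CPM, in KO replicates 1 to 3. WT libraries were spread over 4.29-fold and KO libraries over 1.09-fold, and the lowest WT library stood 3.67-fold above the highest KO library. The mean was 33.8 ± 21.6 CPM in WT and 3.47 ± 0.165 CPM in KO (SD, n = 3), a log2 fold change of -3.28 (SE 0.55). Its adjusted p was 0.763 in edgeR and 5.95e-06 in DESeq2, both over all loci and given as description.

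Fmod encodes fibromodulin, a class II keratan sulfate proteoglycan that binds type I collagen and is a major small proteoglycan of tendon. It lies 115.84 kb from Prelp on the plus strand, at chr1:134037254-134048277 (XLOC_000648). Its level was 5.28, 126 and 17.7 CPM in WT replicates 1 to 3 (373, 5393 and 853 fragments) and 3.38, 1.85 and 2.48 CPM in KO replicates 1 to 3 (72, 69 and 112 fragments). WT replicate 2 was high, and WT replicate 1 stood only 1.56-fold above the highest KO library. The means were 49.7 ± 66.6 and 2.57 ± 0.770 CPM (SD, n = 3), with a log2 fold change of -4.28 (SE 1.23) that was -2.14 without WT replicate 2. The adjusted p was 0.763 in edgeR and 0.0118 in DESeq2.

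Aspn encodes asporin, a class I protein with an aspartate-rich stretch that lacks the usual chain attachment, binds collagen and inhibits TGF-beta. It is on the plus strand at chr13:49544443-49567557 (XLOC_008486). WT replicates 1 to 3 had 6.07, 173 and 30.9 CPM (429, 7370 and 1492 fragments), and KO replicates 1 to 3 had 0.0939, 3.14 and 1.35 CPM (2, 117 and 61 fragments). The 2 genotypes did not overlap, with the lowest WT library 1.94-fold above the highest KO library, but each genotype was widely spread: 28.4-fold in WT and 33.4-fold in KO. The KO spread rests on the 2 fragments of KO replicate 1, a level below what 3 fragments give (0.141 CPM). The log2 fold change was -5.48 (SE 1.63), and -3.55 without WT replicate 2. The adjusted p was 0.763 in edgeR and 0.00929 in DESeq2.

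The sequences before the start sites of these 3 genes are shown because their mRNA was high and low in the same genotypes, and that of Bgn because it was abundant in all 6 libraries. Each is the 250 bases before the start site annotated by RefSeq on GRCm38.p6 (mm10), read 5′ to 3′ on the gene's strand. RefSeq's table matched 8 of the 10 genes, without Dcn and Lum. Capitals mark matches on either strand to 4 motifs: the letters TATAAA of the TATA box, the letters GGGCGG of the GC box, the letters CCAAT of the box of that name, and TGANTCA, which is the AP-1 site. Of 32851 mouse promoter windows of the same length, 12.4% held the first, 32.7% the second, 33.8% the third and 6.75% the fourth, and the median window had 52.4% G and C and 6 CpG.
Prelp, chr1:133921402-133921651, minus strand: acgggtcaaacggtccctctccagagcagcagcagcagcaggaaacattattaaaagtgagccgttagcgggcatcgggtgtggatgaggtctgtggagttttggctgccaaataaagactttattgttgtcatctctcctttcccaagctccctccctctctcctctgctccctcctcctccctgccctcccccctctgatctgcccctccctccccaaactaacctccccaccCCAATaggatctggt
Fmod, chr1:134037004-134037253, plus strand: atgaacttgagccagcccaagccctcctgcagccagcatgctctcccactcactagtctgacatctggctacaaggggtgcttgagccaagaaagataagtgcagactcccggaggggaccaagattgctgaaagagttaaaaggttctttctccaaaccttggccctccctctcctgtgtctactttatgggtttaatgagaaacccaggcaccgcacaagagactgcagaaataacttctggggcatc
Aspn, chr13:49544193-49544442, plus strand: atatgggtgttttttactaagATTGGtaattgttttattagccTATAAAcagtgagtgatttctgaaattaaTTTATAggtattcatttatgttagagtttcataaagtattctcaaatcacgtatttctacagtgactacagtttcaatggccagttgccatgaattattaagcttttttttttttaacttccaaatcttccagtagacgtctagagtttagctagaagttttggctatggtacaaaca
Bgn, chrX:73483351-73483600, plus strand: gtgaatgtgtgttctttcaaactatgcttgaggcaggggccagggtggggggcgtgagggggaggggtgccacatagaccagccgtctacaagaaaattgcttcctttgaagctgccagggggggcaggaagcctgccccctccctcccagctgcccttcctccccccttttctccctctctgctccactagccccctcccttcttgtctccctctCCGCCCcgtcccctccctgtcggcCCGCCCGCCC
Prelp had 1 CCAAT match, 15 bases before the start, and 55.6% G and C with 5 CpG. Fmod had no match to any of the 4 and 51.2% G and C with 2 CpG. The Aspn window was poor in G and C at 30% and held 2 TATAAA matches, 207 and 178 bases before the start, and 1 CCAAT match at 229. Bgn had 64.4% G and C, 7 CpG and 3 GGGCGG matches at 34, 10 and 6 bases before the start, of which the last pair overlap. None of the 4 motifs was present in all 3 windows of Prelp, Fmod and Aspn. A match is a description of letters and not a measured site.

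Dcn was the 1 tested member with a higher mean in KO libraries. It lies on the plus strand of chromosome 10 at chr10:97479500-97518162 (XLOC_002722). Its level was 475, 216 and 797 CPM in WT replicates 1 to 3 and 1459, 1395 and 430 CPM in KO replicates 1 to 3. KO replicates 1 and 2 stood above every WT library, and KO replicate 3 below WT replicates 1 and 3, so the genotypes overlapped. The means were 496 ± 291 and 1094 ± 576 CPM (SD, n = 3), with a log2 fold change of 1.14 (SE 0.64) and an edgeR adjusted p of 0.763 over all loci. Left-out libraries moved that value between 0.80 and 1.66.

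Bgn, at chrX:73483602-73495933 on the plus strand (XLOC_037026), varied least. It had 5068, 4981 and 2383 CPM in WT replicates 1 to 3 and 2904, 3821 and 3580 CPM in KO replicates 1 to 3. WT replicate 3 was the lowest of the 6 and the other WT libraries the highest, so the KO libraries lay inside the WT range. The log2 fold change was -0.27 (SE 0.35), with an adjusted p of 0.816 in edgeR.

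The balance between biglycan and decorin mRNA varied widely between single libraries of either genotype. Bgn was 8.39, 18.1 and 2.34 times Dcn by FPKM in WT replicates 1 to 3, and 1.56, 2.15 and 6.55 times in KO replicates 1 to 3. The ratio was below 3 in WT replicate 3 and KO replicates 1 and 2, and above 6 in the other 3 libraries, so the genotypes overlapped. Of the summed FPKM of the 10 genes, Bgn took 60.6% to 88.8% and Dcn 4.81% to 38.8%. The other 8 genes together took 0.571%, 8.32% and 9.96% in WT replicates 1 to 3, and 0.640%, 0.678% and 0.906% in KO replicates 1 to 3. That minor share was high in WT replicates 2 and 3 alone, and WT replicate 1 lay below all 3 KO libraries. The summed level itself was 1967, 2058 and 1362 FPKM in WT and 1714, 2037 and 1526 FPKM in KO replicates 1 to 3, with overlapping genotypes. The 10 genes held 0.337% to 0.577% of all fragments of a library.

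**Figure D2:**
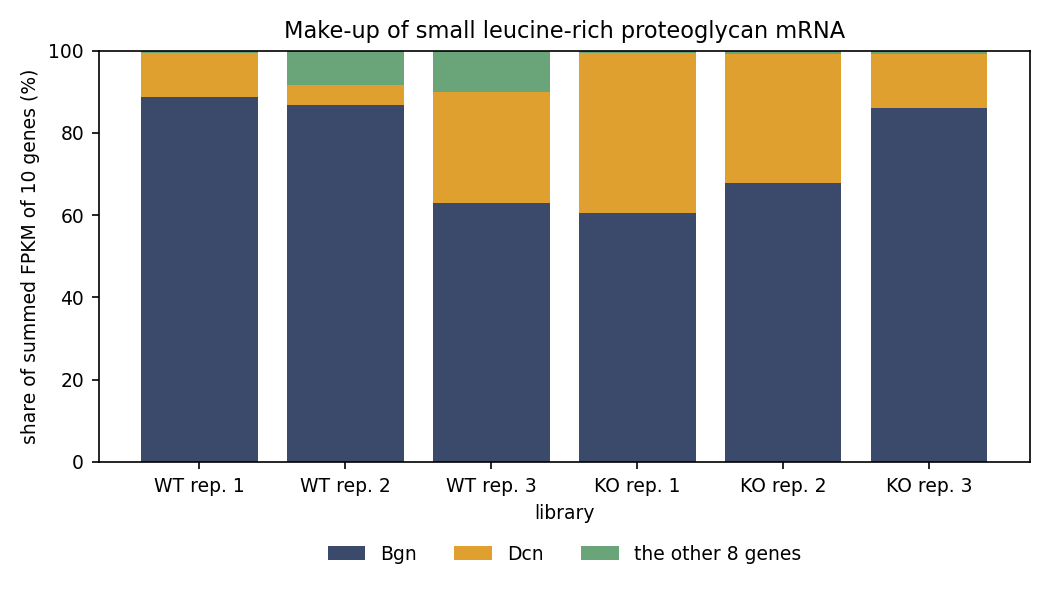
Make-up of the summed FPKM of the 10 genes in each library, in percent. Dark blue is Bgn, orange is Dcn and green is the other 8 genes, whose share is 8.32% and 9.96% in WT replicates 2 and 3 and at most 0.906% in the other 4 libraries.

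Lum encodes lumican, a class II keratan sulfate proteoglycan needed for the regular collagen spacing of the cornea. It lies 47.339 kb past Dcn on the same strand, at chr10:97565501-97572703 (XLOC_002723). Its level was 6.09, 62.7 and 226 CPM in WT replicates 1 to 3 and 18.7, 22.6 and 17.7 CPM in KO replicates 1 to 3. KO libraries were within 1.28-fold of each other, while WT replicate 1 stood below and WT replicates 2 and 3 above all of them. The log2 fold change was -2.32 (SE 1.12, edgeR adjusted p 0.763), and -0.80 without WT replicate 3. Although Lum and Dcn are neighbours, the ratio of Dcn to Lum FPKM was 86.8 both in WT replicate 1 and in KO replicate 1, 3.84 and 3.93 in WT replicates 2 and 3, and 68.7 and 27.0 in KO replicates 2 and 3.

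Ogn encodes osteoglycin, also called mimecan, a class III member of bone, cornea and other connective tissue that binds collagen. It is on the plus strand at chr13:49608071-49624502 (XLOC_008488), 40.514 kb past Aspn. WT replicates 1 to 3 had 2.69, 89.9 and 32.2 CPM, and KO replicates 1 to 3 had 0.846, 1.90 and 6.06 CPM. WT replicates 2 and 3 were high, and KO replicate 3 stood above WT replicate 1, so the genotypes overlapped. The log2 fold change was -3.81 (SE 1.36, edgeR adjusted p 0.763), -2.53 without WT replicate 2 and -4.90 without KO replicate 3.
Its window before the start, at chr13:49607765-49608014 on the plus strand and also poor in G and C (42%), is printed beside that of its neighbour Aspn because both hold TATAAA matches far from the start.
Ogn: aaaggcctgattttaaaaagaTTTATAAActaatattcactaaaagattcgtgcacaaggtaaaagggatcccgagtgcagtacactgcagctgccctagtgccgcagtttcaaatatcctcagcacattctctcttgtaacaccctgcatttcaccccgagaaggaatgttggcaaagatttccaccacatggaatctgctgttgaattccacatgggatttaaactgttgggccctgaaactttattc
Its 2 TATAAA matches, on opposite strands, overlap each other at 229 and 227 bases before the start. In Aspn and Ogn alike, the TATAAA match nearest to the annotated start was at least 178 bases from it.

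Podn encodes podocan, a class V member that binds collagen. Its locus, chr4:108014791-108096445 on the minus strand (XLOC_024942), overlaps that of Scp2 on the same strand, so reads shared between them make its level uncertain. It stood at 5.05, 28.9 and 7.90 CPM in WT replicates 1 to 3 and at 3.01, 3.75 and 6.10 CPM in KO replicates 1 to 3. WT replicate 2 was the high library and KO replicate 3 lay above WT replicate 1. The log2 fold change was -1.70 (SE 0.72, edgeR adjusted p 0.763), and -0.57 without WT replicate 2.

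Omd and Kera were near the limit of detection. Omd encodes osteomodulin, a class II keratan sulfate proteoglycan of bone, and lies between Aspn and Ogn at chr13:49582766-49592609 (XLOC_008487). It had 11, 65 and 23 fragments in WT replicates 1 to 3 and 1, 2 and 11 in KO replicates 1 to 3, or 0.156, 1.52 and 0.476 CPM against 0.0470, 0.0536 and 0.244 CPM. KO replicate 3 was above WT replicate 1, and the levels of KO replicates 1 and 2 are below what 3 fragments give (0.141 and 0.0805 CPM). Pooled over libraries the WT level was 4.53 times the KO level (99 against 14 fragments) (exact 95% interval 2.58 to 8.60, for counting error alone). Kera encodes keratocan, a class II keratan sulfate proteoglycan of the cornea, and lies at chr10:97607205-97613688, 34.502 kb past Lum (XLOC_002724). It had 1, 5 and 6 fragments in WT and 0, 0 and 1 in KO replicates 1 to 3, a pooled ratio of 7.69 with an interval of 1.14 to 329.

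Among the 9 tested genes, 8 had a negative log2 fold change and 1 a positive one, with a median of -2.50. That median is the value of Omd, which had few fragments. In limma on log2(FPKM + 0.1) and on log2(FPKM + 1) the median of the members was -1.35 and -1.17. Over all 15673 loci the median was -0.05 and 55.6% were negative. Of the 9 genes, edgeR called 0 (4 with an unadjusted p under 0.05, all lower; 356 loci of 15673 were lower at that p).

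The spread within the WT group followed certain libraries. WT replicate 1 was the lowest WT library for 8 of the 10 genes, all but Dcn and Bgn. WT replicate 2 was the highest for 5 (Fmod, Aspn, Ogn, Omd and Podn), and WT replicate 3 for 4 (Prelp, Dcn, Lum and Kera). Leaving out WT replicate 1 left 7 of 9 genes with every KO library below every WT library, adding Lum, Ogn, Omd and Podn to Prelp, Fmod and Aspn; of all 15673 loci 18.4% met this in the same libraries. Leaving out KO replicate 3 left 6 (9.69% of all loci), adding Ogn, Omd and Podn, and leaving out WT replicate 3 left 4 (13% of all loci), adding Bgn. Without WT replicate 2, KO replicate 1 or KO replicate 2 the number stayed at 3, and the share of all loci was 8.22%, 8.96% and 8.35%. Prelp, Fmod and Aspn did not overlap with all 6 libraries in, so leaving a library out could not make them overlap. The number could therefore not fall below 3.

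**Figure D3:**
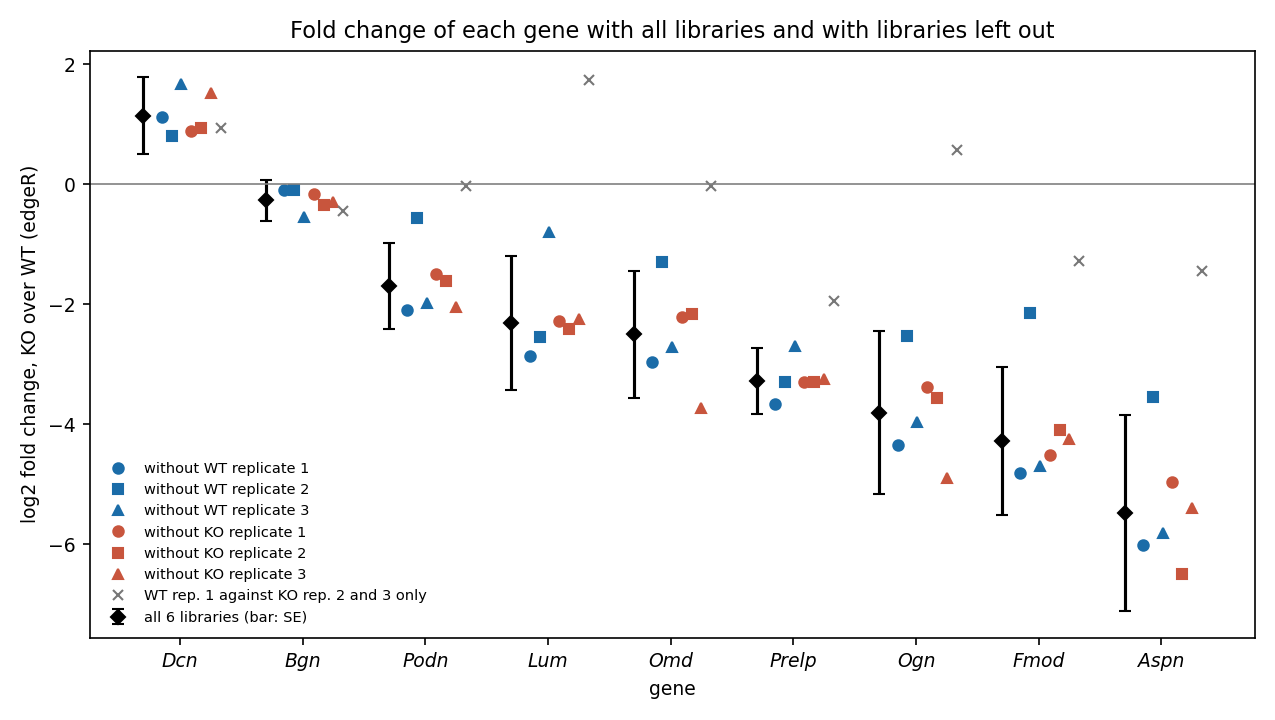
Log2 fold change (KO over WT, edgeR) of the 9 tested genes. Black diamonds with SE bars use all 6 libraries, coloured symbols leave out 1 library, and grey crosses compare WT replicate 1 with KO replicates 2 and 3. Crosses of Lum (1.73) and Ogn (0.57) lie above 0, and those of Prelp (-1.94), Fmod (-1.28) and Aspn (-1.44) below. The sign for Prelp, Fmod and Aspn was fixed, because their KO libraries are all below their WT libraries.

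Markers of macrophages, a cell type that can grow among MEFs, differed between the libraries as well. Of 17 macrophage markers with a usable value none was at 0 in any library, although Aif1 had 1 fragment in KO replicate 2 and Cx3cr1 had 2 in each of KO replicates 1 and 2. Their summed level was 415, 1958 and 13910 CPM in WT replicates 1 to 3 and 1728, 529 and 590 CPM in KO replicates 1 to 3. The loci of Cd68 and Fcer1g are shared with other genes, so the median is also given: 0.934, 90.6 and 717 CPM in WT, and 81.3, 7.62 and 7.74 CPM in KO replicates 1 to 3. All 16 tested markers had a negative log2 fold change (median -2.77); 0 were called by edgeR (6 at an unadjusted p under 0.05). That median was -0.03 without WT replicate 3 and -4.82 without KO replicate 1. DESeq2 called 6 of the 17 lower, of which Cx3cr1 was not tested by edgeR. The 3 libraries richest in these markers were WT replicates 2 and 3 and KO replicate 1. With those left out, a comparison added after seeing the data, the log2 fold changes were -1.94 for Prelp, -1.28 for Fmod, -1.44 for Aspn, -0.45 for Bgn, 0.94 for Dcn, -0.04 for Podn and -0.03 for Omd, and Lum and Ogn were higher in KO at 1.73 and 0.57. That comparison holds a single WT library. Its sign for Prelp, Fmod and Aspn was fixed, because their KO libraries were all below their WT libraries.

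WT replicate 2 and KO replicate 1 had like summed macrophage markers, 1958 and 1728 CPM, although C1qa, a complement gene of mature macrophages, was at 90.6 and 2.91 CPM in them. Set against KO replicate 1, WT replicate 2 had 37.4 times the Fmod level, 106 times that of Ogn, 9.63 times that of Podn, 9.01 times that of Prelp, 3.34 times that of Lum, 1.72 times that of Bgn and 0.148 times that of Dcn. Aspn stood at 173 against 0.0939 CPM, the latter from 2 fragments. This pair, 1 library of each genotype, was picked after seeing the data. WT replicate 2 was the highest library of all for Fmod, Aspn, Ogn and Podn, so large ratios for them were to be found in this pair. WT replicate 3, the richest in macrophage markers, had the highest levels of Lum and Prelp and the second highest of Fmod, Aspn and Ogn. The part of macrophages in the levels of the 10 genes was not tested.

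Some genes of tendon were high in the same WT library as Fmod, Aspn and Ogn. Tnmd, a marker of tendon cells, had 0.566, 90.4 and 7.88 CPM in WT replicates 1 to 3 and 0.141, 0.322 and 0.178 CPM in KO replicates 1 to 3. Thbs4, a thrombospondin of tendon and muscle, had 0.113, 34.0 and 3.13 CPM against 0.282, 0.134 and 0.0444 CPM. Both were high in WT replicate 2, as were Fmod, Aspn and Ogn. Cilp was also highest there (6.16 CPM), but Comp was higher in WT replicate 3 (18.85 CPM) than in WT replicate 2 (8.55 CPM). Egr1 (105 CPM) and Cilp2 (0.164 CPM) had their lowest level of all libraries in WT replicate 2. Of the 10 tendon and fibrocartilage markers (of which Kera is itself 1), 6 were tested by edgeR, 3 were positive and 3 negative, with a median log2 fold change of 0.07 and 0 called by edgeR (2 lower at an unadjusted p under 0.05). The median was -1.33 without KO replicate 3 and -0.67 without WT replicate 1. In DESeq2, which tested all 10, Tnmd, Thbs4 and Comp were called lower. The tendon regulators Scx and Mkx stood at 1.70, 6.09 and 4.20 CPM and at 15.1, 5.86 and 3.87 CPM in WT replicates 1 to 3, and at 1.5, 1.66 and 6.46 CPM and 13.6, 16.8 and 20.4 CPM in KO. Both were highest in KO replicate 3, and their genotypes overlapped; the locus of Mkx is shared with Gm2350. The part of tendon-type cells in the result was not tested.

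**Figure D4:**
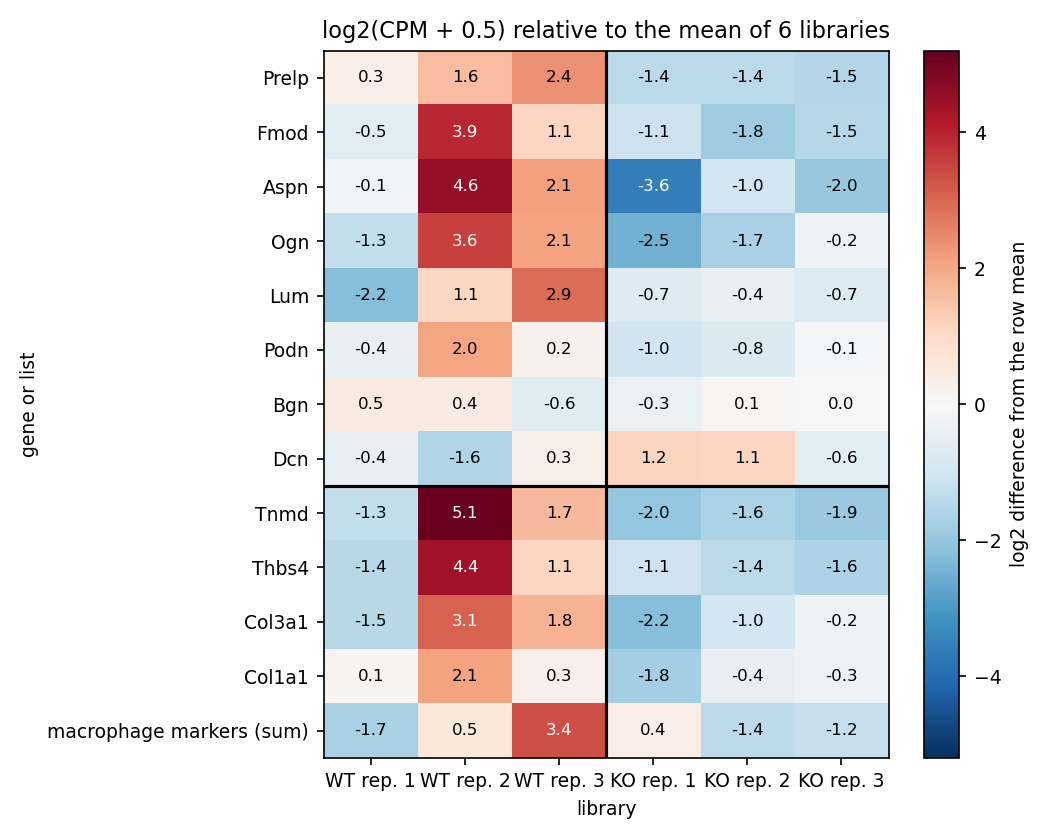
Level of 8 of the genes, of 4 other matrix or tendon genes and of the summed macrophage markers in each library, as log2(CPM + 0.5) minus the mean of the row over 6 libraries (red above, blue below; numbers give the difference). Fmod, Aspn, Ogn, Tnmd, Thbs4, Col3a1 and Col1a1 have their highest value in WT replicate 2, and Prelp, Lum and the macrophage markers in WT replicate 3.

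The genes with the most similar profile were found by the root mean square difference of log2(CPM + 0.5), each gene centred on its own mean over the 6 libraries. Fmod was closest to Thbs4 (0.454), followed by Aoc3 (0.680) and Gpr133 (0.690), against its own spread of 1.99. Aspn was closest to Abi3bp (0.840), then Tnmd (0.891) and Itga11 (1.06), with an own spread of 2.69. Ogn was closest to the collagen gene Col3a1 (0.383), then Gpr133 (0.799) and 1500015O10Rik (0.837), with an own spread of 2.15. These profiles share the peak in WT replicate 2. Thbs4, Gpr133 and 1500015O10Rik were below 0.5 CPM in WT replicate 1 and in every KO library, and Tnmd in every KO library. The added 0.5 flattens such low values, so the distances to these genes depend in part on it. Prelp was closest to Abca9 (0.552), Htra3 (0.579) and Arhgap19 (0.633), with an own spread of 1.56. Lum was closest to Maf (0.426), Cysltr1 (0.446) and Rnf180 (0.475), with an own spread of 1.61. Both groups of genes peaked in WT replicate 3, as the summed macrophage markers did, although Cx3cr1 was higher in WT replicate 2. Among KO libraries, replicate 1 was the richest in these markers. Prelp was at 3.57, 3.57 and 3.28 CPM and Lum at 18.7, 22.6 and 17.7 CPM in KO replicates 1 to 3. Podn was closest to the microfibril gene Fbn1 (0.184), Nedd9 (0.231) and Mtap2 (0.236), with an own spread of 0.999. Dcn was closest to Sod3 (0.292), an extracellular superoxide dismutase, to the locus shared by Gm20547, Cfb and C2 (0.330) and to Stac2 (0.372), with an own spread of 0.977. Bgn was closest to Lrrc4c (0.0603), Ube2cbp (0.0613) and Fez1 (0.0808), with an own spread of 0.391. Omd was closest to Gpr27 (0.0796), C430049B03Rik (0.0896) and Kcnma1 (0.106), with an own spread of 0.651. Flat or low genes are close to many others on this scale, so the distances for Bgn and Omd say little.

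Among the members themselves, leaving Omd aside because the added 0.5 flattens it, Bgn and Podn were 0.924 apart, Fmod and Ogn 0.931 and Aspn and Ogn 1.08. Of the members that peaked in WT replicate 2, Podn was 1.9 from Dcn, Fmod 2.76, Ogn 2.94 and Aspn 3.43, the largest distance of all pairs. Among members of 1 chromosome, Aspn and Ogn were 1.08 apart, Prelp and Fmod 1.16 and Dcn and Lum 1.93.

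Of the 10 genes, 8 lie in 3 clusters that also hold other family genes. On chromosome 1, Optc lies 2.305 kb from Prelp. On chromosome 10, Dcn, Lum, Kera and Epyc follow each other on the plus strand, with Epyc 30.38 kb past Kera. On chromosome 13, Ecm2, Aspn, Omd and Ogn follow each other on the plus strand, with gaps of 11.654, 15.209 and 15.462 kb. The 4 chromosome 13 genes all had negative log2 fold changes, of -2.66, -5.48, -2.50 and -3.81 in that order, whereas on chromosome 10 Dcn was at 1.14 and Lum at -2.32. Each of the 4 had its highest level in WT replicate 2, and only Aspn did not overlap between the genotypes. Ecm2 had few fragments, as Omd did: 5, 94 and 15 in WT and 1, 11 and 2 in KO replicates 1 to 3.

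**Figure D5:**
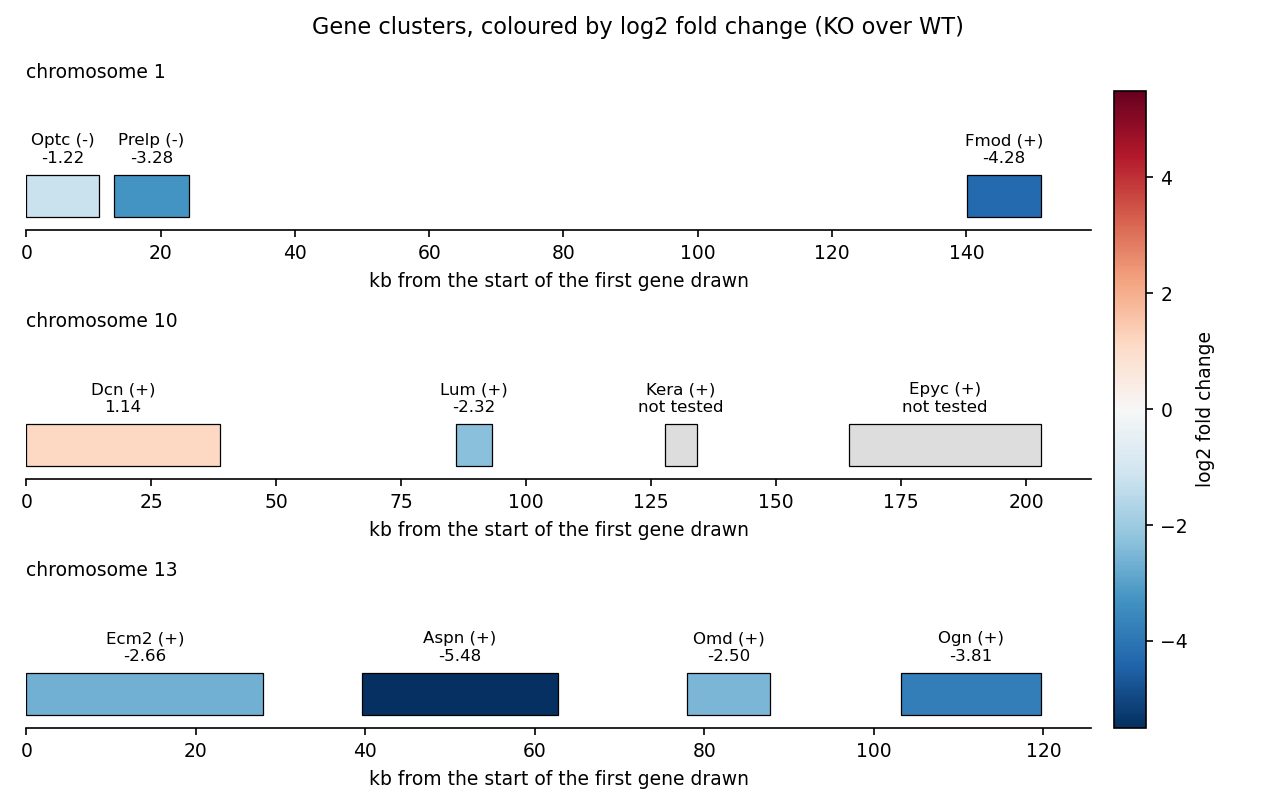
Position of the clustered genes on mm10, in kb from the start of the first gene drawn, coloured by log2 fold change (KO over WT), with the strand in brackets. Genes in grey were not tested. All 3 tested genes of chromosome 1 and all 4 of chromosome 13 are below 0, and Dcn on chromosome 10 is above. Ecm2 and Omd rest on few fragments.

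The other 8 genes of the family included 4 that were tested, of which 1 had a positive and 3 a negative log2 fold change (median -0.90), with 0 called by edgeR or by DESeq2 and 1 in each direction at an unadjusted edgeR p under 0.05. Without WT replicate 2 the median was -0.41. Tsku, which encodes tsukushi, a class IV inhibitor of BMP signalling, had 87.7, 68.2 and 67.3 CPM in WT replicates 1 to 3 and 109, 95.1 and 104 CPM in KO replicates 1 to 3. All 3 KO libraries were above all WT libraries, with a log2 fold change of 0.47 (SE 0.16, edgeR adjusted p 0.763). Optc, which encodes opticin, a class III member of the eye's vitreous body, had 2.11, 3.49 and 1.24 CPM in WT and 1.03, 1.02 and 0.887 CPM in KO, with the KO libraries below. Ecm2 and Podnl1, the latter a relative of podocan, overlapped between the genotypes, with log2 fold changes of -2.66 (SE 1.43) and -0.58 (SE 0.45). Epyc, which encodes epiphycan, had 22 fragments in WT and 2 in KO libraries in all. Chad had 6, 3 and 1 fragments in WT and 1, 3 and 6 in KO replicates 1 to 3, Nyx 12, 3 and 4 against 3, 6 and 13, and Nepn 14, 0 and 0 against 13, 5 and 7.

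The enzymes that build the sugar chains had median fold changes near those of all loci. Of 21 tested genes for the linker and for chondroitin or dermatan sulfate, 7 were positive and 14 negative (median log2 fold change -0.08), 0 were called by edgeR, and 2 were lower at an unadjusted p of 0.05. With each library left out in turn the median lay between -0.09 and 0. The 2 lower genes were Chsy3, a chondroitin synthase, at 7.77 ± 5.22 CPM in WT and 2.83 ± 0.606 in KO (SD, n = 3), and Csgalnact2, which starts chondroitin chains, at 45.7 ± 9.07 and 33.6 ± 0.133 CPM. The sulfotransferase gene Chst3 had a log2 fold change of -1.54 (SE 0.69). Of 9 tested genes for keratan sulfate, 6 were positive and 3 negative (median 0.19), with 0 called by edgeR and 0 at an unadjusted p of 0.05; the median was -0.01 without WT replicate 2. B4galt4, B3gnt7 and St3gal3 had log2 fold changes of -0.70 (SE 0.35), -2.57 (SE 1.39) and 0.19 (SE 0.16). Core proteins and enzymes were not tested against each other.

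The collagens that these proteoglycans bind had a negative median fold change. Of 15 tested, 12 had a negative and 3 a positive log2 fold change (median -1.5, and -0.58 without WT replicate 2). EdgeR called 0 (4 lower at an unadjusted p under 0.05). In 5 every KO library was below every WT library, against 5.44% of all loci tested. The list was chosen with earlier results of these data known, so nothing is read from that number. Col1a1, a chain of type I collagen, had 3111, 11990 and 3408 CPM in WT replicates 1 to 3 and 829, 2080 and 2318 CPM in KO replicates 1 to 3. WT replicate 2 was again the high library and the genotypes did not overlap, with a log2 fold change of -1.82 (SE 0.69). Col6a2, a chain of type VI collagen, had 509 ± 517 CPM in WT and 101 ± 46.4 CPM in KO (SD, n = 3), and Col3a1 had 144, 3324 and 1385 CPM against 83.7, 197 and 342 CPM, overlapping. DESeq2 called 1 collagen lower, Col2a1 of cartilage, which edgeR did not test, with 11, 377 and 97 fragments in WT against 3, 4 and 10 in KO replicates 1 to 3.

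The list of proteases that process or cleave members of the family also holds Pcolce, an enhancer of procollagen cleavage that is not itself a protease. Of its 13 tested genes, 8 had a positive and 5 a negative log2 fold change (median 0.55), with 0 called by edgeR. At an unadjusted p of 0.05, 2 were higher and 1 lower. The median was 0.14 without KO replicate 3 and 0.92 without WT replicate 1, and it was also lower without KO replicate 1 (0.29) and without WT replicate 2 (0.34). In 3 every KO library was above every WT library, against 5.18% of all loci tested, and nothing is read from that number. Mmp13, an interstitial collagenase, had 182, 11.3 and 118 CPM in WT replicates 1 to 3 and 1217, 844 and 515 CPM in KO replicates 1 to 3, a log2 fold change of 3.05 (SE 0.97). Mmp9, a gelatinase, had 26.3, 11.1 and 37.6 CPM against 122, 65.9 and 49.4 CPM (1.66, SE 0.54), and was also higher in each KO library. Adamts5, an aggrecanase, had 15, 110 and 128 CPM against 32.0, 18.2 and 15.2 CPM, with overlap.

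Among 18 tested receptors and growth factors that members bind, 6 were positive and 12 negative (median log2 fold change -0.24), with 0 called by edgeR and 1 higher at an unadjusted p of 0.05. The median was 0.10 without WT replicate 3, and between -0.49 and -0.11 without any other single library. Bmp2, a bone morphogenetic protein, had 7.23, 0.703 and 4.82 CPM in WT and 20.7, 15.9 and 31.2 CPM in KO replicates 1 to 3, a log2 fold change of 2.41 (SE 0.81). It was the 1 gene of that list whose KO libraries all lay above the WT libraries. Met, a receptor for hepatocyte growth factor, and P2rx7, an ATP-gated channel, overlapped, with log2 fold changes of 0.61 (SE 0.29) and -1.95 (SE 1.04). The list of proteoglycans outside the family also holds Smoc1 and Smoc2, which encode matrix glycoproteins. Of its 20 tested genes, 11 were positive and 9 negative (median 0.09), with 0 called by edgeR and 1 in each direction at an unadjusted p of 0.05. With each library left out in turn this median lay between -0.10 (without WT replicate 3) and 0.29 (without WT replicate 2). Cspg4, a membrane proteoglycan, had 39.6, 264 and 104 CPM against 49.8, 31.5 and 32.9 CPM, with overlap. Gpc1, a glypican, had 228, 177 and 159 CPM against 254, 248 and 505 CPM, and Sdc1, a syndecan, had 239, 210 and 195 CPM against 295, 244 and 298 CPM, both without overlap and with log2 fold changes of 0.83 (SE 0.34) and 0.38 (SE 0.16). Bmp2, Gpc1 and Sdc1 had every KO library above every WT library, as did 5.18% of all loci tested. DESeq2 called 0 genes of the sugar chain, protease, receptor and other proteoglycan lists.

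A search by exact gene name found 8 of the 10 genes in the authors' deposited table. In the authors' deposited table the log2 fold change was -3.21 for Prelp (q = 0.0859), -5.5 for Aspn (q = 0.922) and -2.32 for Lum (q = 0.541). The same authors' deposited table gave 1.16 for Dcn, -0.24 for Bgn, -2.63 for Omd and -3.81 for Ogn, each with q = 1, and did not test Kera. None of these 8 genes was among the 17 with q under 0.05 of the 8799 tested in the authors' deposited table. Fmod and Podn were not found by exact name, and names joined with those of other genes were not searched.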

How the data were processed

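Messenger RNA of 6 MEF libraries, 3 WT and 3 KO, was analysed. The submitters' processing notes list Cuffdiff 2.0.1, TopHat2 2.0.6 and CASAVA 1.8.2, and the build mm10, with neither role nor order. Per the file headers, the deposited values are the estimated count of fragments and the FPKM per locus. The headers also name scaled fragments, a signal deposited by the authors, which was not used. Strand use in counting was not given in the sources used here. A comparison table deposited by the authors gives a log2 fold change, a p-value and a q-value per gene.

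Estimated counts (24.2% of values above 0 not whole) were rounded. Of 39495 loci, 2667 without a gene name (0.507% to 0.555% of fragments) and 16 marked HIDATA were left out. The test was the robust quasi-likelihood F test of edgeR 4.0.16 under R 4.3.3 (TMM scaling, filterByExpr, Benjamini-Hochberg threshold 0.05); the common biological coefficient of variation was 0.467. Alternatives were DESeq2 1.42.0, limma 3.58.1 (voom, and on log2 FPKM with 1 or 0.1 added), other scalings and filters, and leaving out libraries. An exact 95% interval or a floor of 3 fragments covers counting error only.

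The members and lists were chosen with earlier results of these data known. Named genes were the 10 members, Stc1, other family genes with a fragment, the 3 tested genes of smallest p in each pathway list, and the 3 genes nearest to each member; single marker genes, Col2a1 and neighbouring genes were named after their values were seen.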

Additional observations from a re-analysis of the deposited data

How the results depend on the processing

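The number of loci called at the adjusted threshold depended on the tool: edgeR called 0 in each direction, DESeq2 called 29 higher and 32 lower, and limma on log2(FPKM + 0.1) called 1 higher. Of 134 refits of single members, 117 stayed within 1 SD between libraries of the value given, 15 moved by more and kept their sign, and 2 changed sign. That SD is wide for some members, from 0.46 log2 units for Bgn to 1.83 for Lum and 1.93 for Ogn. For Lum, a move from -2.32 to -0.80 without WT replicate 3 therefore counted as within it. Both sign changes came from an alternative chosen after seeing the data, which left out the 3 libraries richest in macrophage markers: Lum was at 1.73 and Ogn at 0.57, and the median of the members was -0.04 in place of -2.50. That alternative has 1 WT library, assumed to vary like the KO libraries, and the cause was not tested. Leaving out each library in turn, the number of members with every KO library below every WT library ranged from 3 to 7. It could not fall below 3, because Prelp, Fmod and Aspn did not overlap with all libraries in. The median of all loci stayed within 0.1 of the given value in every setting. Omd and Kera had few fragments, at most 65 and 6 in a library. No paired analysis was possible because replicate numbers were given in accession order and pair nothing.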

Other observations

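Lists of other cell types that a MEF culture can hold gave the following values. Smooth muscle genes had a median log2 fold change of -1.10 over 7 tested genes (-0.26 without WT replicate 2), with 0 called by edgeR (3 lower at an unadjusted p under 0.05) and 0 by DESeq2. Actg2, an enteric smooth muscle actin, stood at 66.6, 326 and 102 CPM in WT replicates 1 to 3 and at 43.2, 35.1 and 39.7 CPM in KO replicates 1 to 3, high in WT replicate 2 as Fmod and Aspn were. The summed bone markers were 1844, 2745 and 8913 CPM in WT and 6694, 3805 and 9175 CPM in KO replicates 1 to 3, nearly all of it Spp1, which encodes osteopontin and had the highest WT level in WT replicate 3. The summed endothelial markers were at most 23.8 CPM, the epithelial markers at most 32.4 CPM, the mesothelial markers at most 37.3 CPM, the cartilage markers at most 47.5 CPM and the skeletal muscle markers at most 103.5 CPM in any library. That last sum, in WT replicate 2, was mostly Des (98.25 CPM), which is also a smooth muscle marker. Myod1, Myog and Myf5 had at most 2 fragments in a library. Krt19, on both the epithelial and mesothelial lists, gave 30.3 CPM of sums of 32.4 and 32.7 CPM in WT replicate 1. The part of these cells in the levels of the 10 genes was not tested.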
